A study of Mus musculus with 2 samples.

Results

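The miR-148 and miR-152 family consists of Mir148a, Mir148b and Mir152, which were chosen by name as the hairpin genes whose mature 3p RNAs share 1 seed. They are 3 of 2201 annotated mouse miRNA hairpin genes, of which 1230 had at least 1 read. Small RNA was sequenced from whole C57BL/6 testes at embryonic day 16.5, in 1 wild-type (WT) library and 1 library from mice lacking Hsp90α (Hsp90α KO), a cytosolic chaperone encoded by Hsp90aa1, each made from 20 pooled testes. The labels give natural mating for both groups and name no Cre driver or transgene. The testis was not dissociated, so germ cells, supporting cells, interstitial cells and vessels were measured together, and fewer cells of a type and less RNA per cell cannot be told apart. With 1 library per genotype there was no replicate check, and every p-value and interval below covers the sampling of reads in these libraries and not the difference between genotypes.

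A miRNA is cut from a hairpin as a duplex of 2 strands, one from the 5′ side (5p arm) and one from the 3′ side (3p arm), and usually 1 of them is kept by an Argonaute protein. Bases 2 to 8 of the kept strand, the seed, pair with sites in the 3′ UTR of target mRNAs. The family is known for repressing the maintenance DNA methyltransferase Dnmt1, and the fetal testis at this stage is where male germ cells regain DNA methylation.

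The mature sequences are shown first because the members differ from each other by few bases. All 6 were found in RefSeq (GRCm38.p6), and the seed is in capitals.
miR-148a-3p: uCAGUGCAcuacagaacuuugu
miR-148b-3p: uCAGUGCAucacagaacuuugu
miR-152-3p: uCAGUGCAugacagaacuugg
miR-148a-5p: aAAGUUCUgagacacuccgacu
miR-148b-5p: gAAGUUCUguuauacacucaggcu
miR-152-5p: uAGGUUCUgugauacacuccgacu
On the 3p arm the seed was the same in all 3 members. Counted from the 5′ end, miR-148b-3p differed from miR-148a-3p by C9U and U10C, the 2 bases just after the seed, and was identical at 20 of 22 bases. miR-152-3p differed from miR-148a-3p by C9U, U10G and U20G, and was identical at 18 of the 21 bases compared. The 5p arms were less alike. miR-148a-5p and miR-148b-5p were identical at 13 of 22 bases and shared a seed, whereas miR-152-5p carried A3G within the seed relative to both.

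Mir148a (ENSMUSG00000065505.1) lies at chr6:51269812-51269910 on the minus strand of GRCm38, in no annotated gene, 163 kb from Nfe2l3. Mir148b (ENSMUSG00000065560.1) lies at chr15:103285125-103285221 on the plus strand, in an intron of Copz1 on the same strand. Mir152 (ENSMUSG00000065515.1) lies at chr11:96850393-96850465 on the plus strand, in an intron of Copz2 on the same strand. Copz1 and Copz2 encode zeta subunits of the COPI vesicle coat, so the pair of intronic members sits in paralogous host genes.

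The WT library held 6409305 reads and the KO library 5589326, of which 2523084 (39.4%) and 2561491 (45.8%) matched a miRNA hairpin exactly over at least 16 nt. Levels are given as RPM, the reads per 1000000 hairpin-matching reads of the library, on which scale 3 reads, the most that a count of 0 allows, correspond to 1.19 RPM in WT and 1.17 in KO. A level counts reads and not molecules. Fragments of the Hsp90aa1 transcript that occur in no Hsp90ab1 transcript gave 22 reads in WT and 37 in KO, a KO/WT ratio of 1.66 (95% interval 0.952 to 2.95). The fragments were not lower in KO, and since the deleted part of the gene was not located here, they do not check the genotype label.

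Mir148a supplied nearly all reads of the family. It was read 49627 times in WT and 49259 times in KO, or 19669 and 19231 RPM, which ranked 10 among the 1230 hairpin genes with reads and made up 97.0% of the family in each library. Mir152 was read 933 and 929 times, or 370 and 363 RPM. Mir148b was read 614 and 603 times, or 243 and 235 RPM. Mir148a exceeded Mir152 by 53.2-fold in WT and 53.0-fold in KO, and Mir148b by 80.8-fold and 81.7-fold. By exact matches the order Mir148a, Mir152, Mir148b was the same in both libraries, and the 95% Wilson intervals of Mir152 (347 to 394 in WT) and Mir148b (225 to 263 in WT) did not overlap. With reads that carry added 3′ bases counted, as given below, Mir148b stood above Mir152 and Mir148a exceeded Mir148b by 24.8-fold in WT.

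The level of each member was nearly the same in the WT and KO libraries. For Mir148a KO stood at 0.978 of WT (0.966 to 0.990, a 95% Clopper-Pearson range, exact conditional binomial test, two-sided, p = 0.00119 adjusted over the 3 genes), a difference of 2.23% of its level that passed the test on reads. Mir148b had a ratio of 0.967 (0.863 to 1.08, exact adjusted p = 0.677). Mir152 had a ratio of 0.981 (0.895 to 1.08, exact adjusted p = 0.677). The family together went from 20282 to 19829 RPM, a ratio of 0.978 (0.966 to 0.990, exact p = 0.000305). These directions depend on the total used. Relative to all reads of each library every ratio shifted by 0.22 on the log2 scale, and Mir148a, Mir148b and Mir152 were then at 1.14, 1.13 and 1.14, each in the other direction and below a p of 0.05 (unadjusted exact p = 5.33e-92, 0.0386 and 0.00427). Relative to the median ratio of the hairpin genes with at least 100 reads, every match counted, they were at 1.13, 1.12 and 1.14, and relative to the same median over sequences specific to 1 hairpin gene, a choice made after seeing the data, Mir148a was at 0.997 and no longer passed the test. That second median, 0.981, was the ratio of Mir152 itself. The 0.997 is therefore the quotient of the Mir148a and Mir152 ratios, and this total is not independent of the family.

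The members did not differ detectably from each other in their KO/WT ratio, a comparison in which the normalizing total cancels. The quotient of the Mir148a and Mir148b ratios was 1.01 (0.901 to 1.13), that of Mir148a and Mir152 was 0.997 (0.909 to 1.09), and that of Mir148b and Mir152 was 0.986 (0.851 to 1.14). All 3 pairs had the same adjusted p of 0.963 in a two-sided Fisher's exact test.

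None of the 3 members lay past 1.2-fold in either direction. Among 458 hairpin genes with at least 100 reads, with every read counted for each gene it matches, 53.5% lay past 1.2-fold and 40% past 1.5-fold, and among the 178 with at least 1000 reads these shares were 38.8% and 30.9%. Of the 183 genes past 1.5-fold, all 183 were lower in KO and 176 carried a Gm name, which marks a predicted gene model. Many of these predicted hairpins share reads. The count was therefore repeated on sequences that match 1 hairpin gene only, as every family sequence does, a choice made after the first shares were seen. On that count 23.9% of 205 genes lay past 1.2-fold and 1.95% past 1.5-fold, and of the 89 genes with at least 1000 reads 13.5% and 0% did. By either count a hairpin within 1.2-fold was common, so the position of the members is not particular to them.

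**Figure D1:**
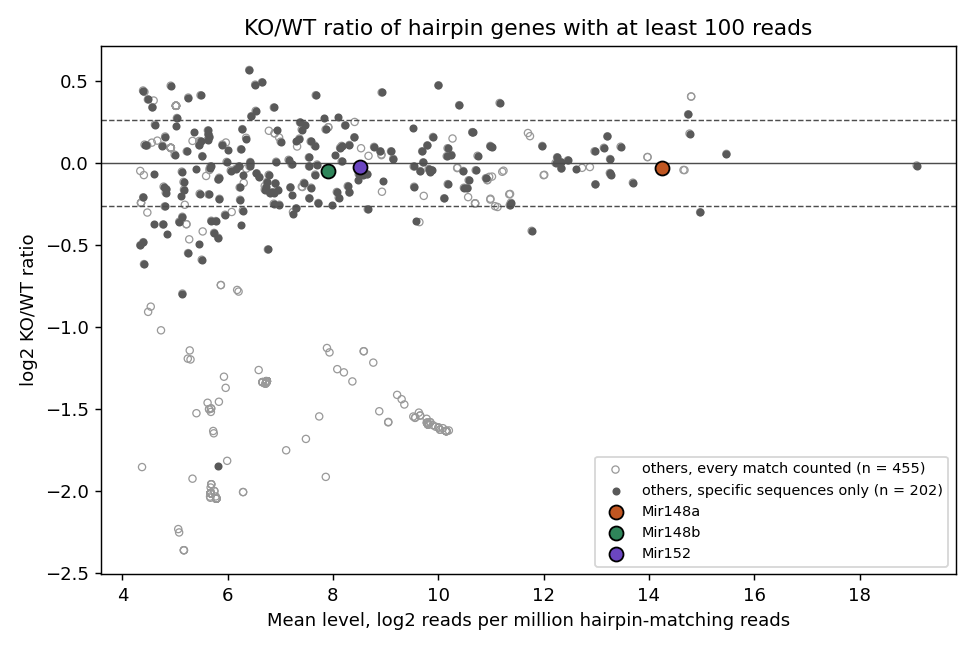
KO/WT ratio (log2) of hairpin genes with at least 100 reads against their mean level (log2 RPM), with open circles for every match counted, filled grey circles for sequences specific to 1 gene, coloured circles for the members and dashed lines at 1.2-fold. The 3 members lie close to 0, with ratios of 0.978, 0.967 and 0.981, while a group of genes seen mainly among the open circles lies below.

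By ratio alone, with every match counted, the hairpin genes with at least 1000 reads nearest to Mir148a were Mir103-1 (ratio 0.978), Mir92-1 (0.979) and Mir30d (0.976). Those nearest to Mir148b were Mir30c-1 (0.967), Mir431 (0.969) and Mir335 (0.966), and those nearest to Mir152 were Mir103-2 (0.980), Mir199b (0.982) and Mir92-1 (0.979). Each list rests on 1 ratio from 2 libraries. Mir103-1 and Mir103-2 share nearly all of their reads. By specific sequences Mir199b had 521 and 640 reads, a ratio of 1.21, and Mir30c-1 had 158 and 169 reads, a ratio of 1.05.

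The arm that was read differed among the members. By exact matches, of Mir148a reads 98.1% in WT and 98.3% in KO came from the 3p arm, and of Mir148b reads 85.7% and 84.4% did. By exact matches Mir152 was read mostly from its 5p arm, with 623 and 627 reads against 310 and 302 from the 3p arm, so that only 33.2% of its reads in WT (95% Wilson interval 30.3 to 36.3) and 32.5% in KO (29.6 to 35.6) carried the 3p sequence. A less-read arm that held at least 30% of reads was found in 18 of 200 hairpin genes (9%), where the median was 2.14%, again by exact matches. This order of the Mir152 arms turned when reads with an untemplated 3′ tail, which the hairpin does not encode, were included, a count added after seeing the data. The 3p arm then had 713 reads in WT and 686 in KO against 632 and 637 from the 5p arm, or 53.0% (50.3 to 55.7) and 51.9% (49.2 to 54.5) of its reads. Mir152 gave 0.626% of the family's exact 3p reads in WT, 1.31% with tails, and 37.4% of its exact 5p reads, 37.5% with tails.

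The 3p share did not differ between WT and KO beyond counting error after adjustment. It was 0.176 percentage points higher in KO for Mir148a (0.00904 to 0.344, Fisher's exact test, adjusted p = 0.118), and the differences for Mir148b and Mir152 were -1.26 (-5.28 to 2.76) and -0.718 points (-4.98 to 3.54), both with an exact adjusted p of 0.767. The Mir148a 5p arm had 955 reads in WT and 861 in KO, a ratio of 0.888 (0.809 to 0.975), the lowest of the 6 arms. Its exact conditional binomial p of 0.0120 was not adjusted over the 6 arms.

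**Figure D2:**
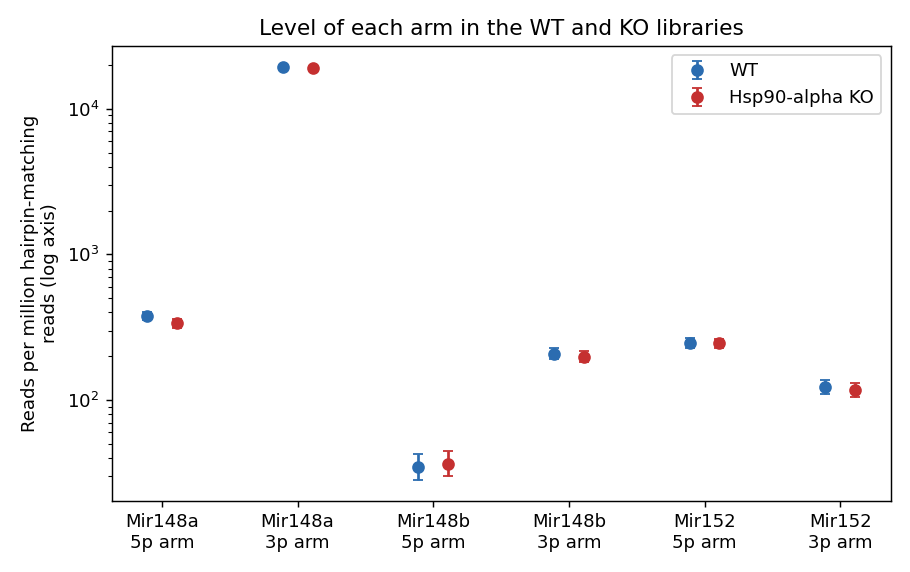
Level of the 5p and 3p arm of each member by exact matches, in RPM (log axis), in blue for WT and red for Hsp90α KO, with 95% Wilson intervals that cover counting error only. The Mir148a 3p arm is far above all others, and by exact matches, though not with tailed reads, Mir152 is the member whose 5p arm (247 and 245 RPM) is above its 3p arm (123 and 118).

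The 5′ end sets the seed, and it was nearly fixed on the 3p arm. Of 3p reads, 99.7% of Mir148a in both libraries began at the RefSeq start, as did all 526 Mir148b reads in WT and 508 of 509 in KO, and 309 of 310 Mir152 reads in WT and all 302 in KO. Reads with the seed CAGTGCA therefore made up 96.5% of the family in WT (49371 reads) and 96.6% in KO (49068 reads). No other hairpin gene reached 10 reads with this seed. Mir130a had 6 in WT and 2 in KO, and Mir130b had 1 and 0.

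The Mir152 5p arm was read from 2 start sites 1 base apart, which give 2 seeds. Both forms are shown with the seed of each in capitals.
miR-152-5p, 24 nt: tAGGTTCTgtgatacactccgact
miR-152-5p, 23 nt: aGGTTCTGtgatacactccgact
The RefSeq start held 57.8% of the 5p reads in WT (360) and 58.5% in KO (367), and the start 1 base later held 42.2% (263) and 41.5% (260). By contrast 92.6% of Mir148a 5p reads in WT and 91.5% in KO had the RefSeq start. The seed AAGTTCT common to Mir148a and Mir148b was carried by 963 reads in WT and 871 in KO, of which Mir148b gave 79 and 83.

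Of the shares compared between the libraries, that of the main 3′ end of miR-148a-3p was the one that passed the test. The main forms are shown with the bases past the RefSeq end, which follow the hairpin, in capitals.
22 nt: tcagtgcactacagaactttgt
23 nt: tcagtgcactacagaactttgtC
24 nt: tcagtgcactacagaactttgtCT
The 22-nt form was read 26772 times in WT and 24895 times in KO, a ratio of 0.916 (0.900 to 0.932). The 23-nt form was read 18913 and 20711 times, a ratio of 1.08 (1.06 to 1.10), and the 24-nt form 1874 and 1755 times. The 23-nt form thus went from 0.706 to 0.832 reads per 22-nt read, a quotient of 1.18 (1.15 to 1.21, Fisher's exact test, p = 2.02e-34). The share of 3p reads that ended at the RefSeq end was 55.1% in WT and 51.5% in KO, a difference of -3.58 points (-4.21 to -2.95, exact adjusted p = 1.72e-28). With 48672 3p reads in WT and 48398 in KO, a difference of this size is far above counting error, and how much 2 libraries of 1 genotype would differ is not known.

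The same share was 89.9% and 89.6% for Mir148b, a difference of -0.337 points (-4.08 to 3.38, exact adjusted p = 0.918), and 49.0% and 43.7% for Mir152, a difference of -5.32 points (-13.1 to 2.57, exact adjusted p = 0.293). Both intervals include the Mir148a difference. Exactly matching Mir148b reads ended mostly at 22 nt, and the 23-nt templated form had 19 and 18 reads.

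**Figure D3:**
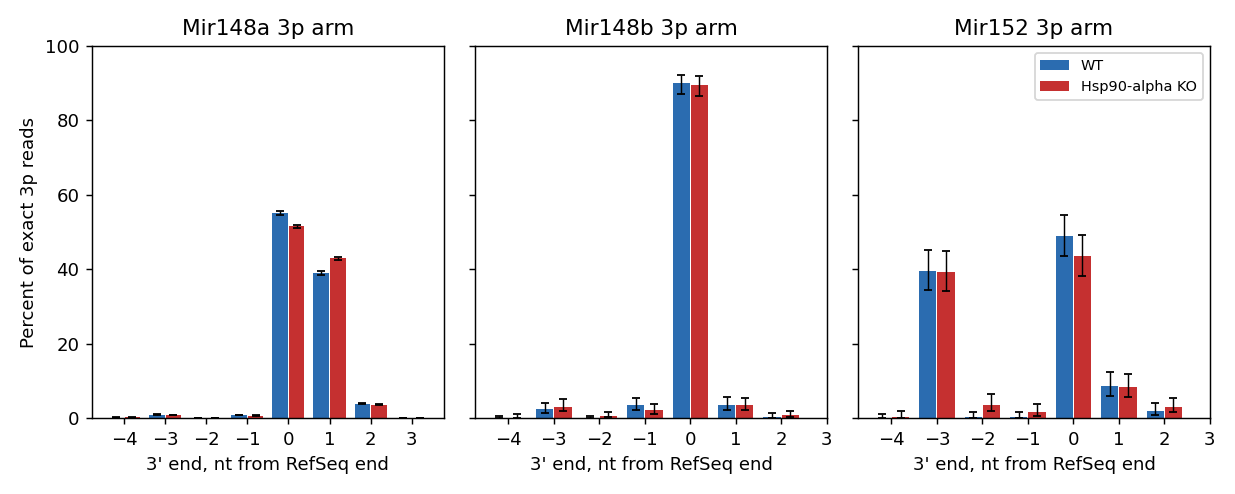
Share of exactly matching 3p reads by the position of their 3′ end relative to the RefSeq end (nt), for the 3 members in WT (blue) and Hsp90α KO (red), with 95% Wilson intervals. Mir148a is split between the RefSeq end (55.1% and 51.5%) and 1 base beyond it (39.0% and 43.0%), Mir148b is at the RefSeq end, and Mir152 has a further end 3 bases short.

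Reads that extended past the RefSeq 3′ end by bases of the hairpin were compared in the same way for 89 mature miRNAs with at least 1000 reads. Only 5.62% of them moved by over 2 percentage points in either direction and 3.37% moved up by that much in KO, a threshold set after the Mir148a values were known. The median difference was 0.0276 points. Many of the 89 had a share near an end of the range, such as miR-22-3p (0.0922% in WT) and miR-30e-5p (93.7%), and had less room to move. miR-148a-3p went from 42.8% to 46.6% (+3.73 points), behind miR-673-5p (49.7% to 56.4%) and miR-17-5p (22.9% to 28.6%), which rest on 724 and 714 reads and on 455 and 560 reads in WT and KO. The other 2 past the threshold were miR-451a (-2.49 points) and miR-30a-5p (-2.09 points). The miRNAs nearest to miR-148a-3p in WT share also rose, by less than 2 points. They were miR-181c-5p (43.7% to 45.0%), miR-342-3p (44.1% to 45.9%) and miR-183-5p (45.0% to 46.9%).

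**Figure D4:**
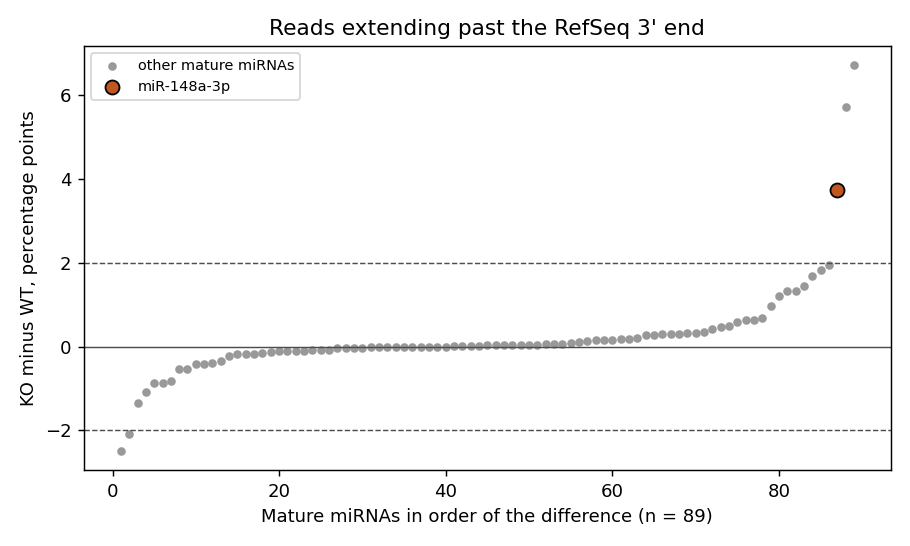
Difference between KO and WT (percentage points) in the share of reads that extend past the RefSeq 3′ end, for 89 mature miRNAs in order of the difference, with dashed lines at 2 points. Most points lie close to 0, and miR-148a-3p (+3.73) is the third from the top.

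Mir152 had a short 3p form that held a larger share of its 3p reads than in the other members. The 3 bases in capitals are those missing from the short form.
miR-152-3p, 21 nt: tcagtgcatgacagaactTGG
The form without them was read 123 times in WT and 119 in KO, against 152 and 132 reads of the 21-nt form, or 39.7% and 39.4% of the 3p reads. The 19-nt form had 1 and 11 reads. For Mir148a 465 and 437 3p reads ended 3 bases short (0.955% and 0.903%), and for Mir148b 13 and 16 did (2.47% and 3.14%). Among mature sequences that end in the same 3 bases, 2 of 5 (miR-152-3p and miR-503-3p) had at least 10% of their reads 3 bases short, against 11 of 228 others (4.82%). The comparison was prompted by miR-152-3p, which is therefore not an independent case in it. In the libraries together miR-503-3p was at 23.7%, on 49 reads in WT and 65 in KO. The remaining ones were low, with miR-136-5p at 1.47%, miR-3470b at 0.586% and miR-540-3p at 0.449%. The 3′ adaptor of the kit also begins with TGG, and the part of adaptor clipping in this form was not tested.

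The members also differed in untemplated 3′ tails, 1 to 3 bases at the end of a read that the hairpin does not encode. Enzymes that add U or A to small RNAs are known to make them. Of Mir148a 3p reads 5.58% in WT and 5.38% in KO had a tail, of Mir148b 74.1% and 74.99%, and of Mir152 56.5% and 56.0%. The 5p arms had few, from 0.577% to 1.57% for Mir148a and Mir152 and 3 reads in WT and 0 in KO for Mir148b. Among 256 mature miRNAs the median was 13.6%, and 24 (9.38%) were over 50%. miR-148b-3p ranked 9 from the top, miR-152-3p 22 and miR-148a-3p 192. No sequence with a tail and at least 20 reads (32 in all) occurred in any of 141767 annotated transcripts.

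On Mir148b the tail was nearly always U, and the form with 2 added bases was read more often than the untailed one. The added bases are in capitals, with T for U as in the reads.
no tail: tcagtgcatcacagaactttgt
1 base added: tcagtgcatcacagaactttgtT
2 bases added: tcagtgcatcacagaactttgtTT
3 bases added: tcagtgcatcacagaactttgtTTT
They were read 473, 309, 1021 and 47 times in WT and 455, 314, 1040 and 36 times in KO. The templated 24-nt form, which differs by 1 base from that with 2 added bases, had only 2 and 4 reads. For Mir148a the same tail of 2 bases had 1264 and 1279 reads, beside 1874 and 1755 of its templated 24-nt form. That is 67.4% and 72.9% of the templated form, whereas the form with 1 added U, which differs by the same base from the 23-nt templated form, was at 3.17% and 2.47% of that form. Tails of U alone made up 91.7% of Mir148b tails in WT and 91.2% in KO, 67.3% and 67.4% of those of Mir148a, and 34.2% and 40.1% of those of Mir152, where tails of A alone held 30.8% and 28.4%.

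The share of tailed reads did not differ between WT and KO beyond counting error. The difference was -0.197 points for Mir148a (-0.476 to 0.0812, Fisher's exact test, adjusted p = 0.498), 0.899 points for Mir148b (-1.78 to 3.58, exact adjusted p = 0.776) and -0.545 points for Mir152 (-5.73 to 4.64, exact adjusted p = 0.872).

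**Figure D5:**
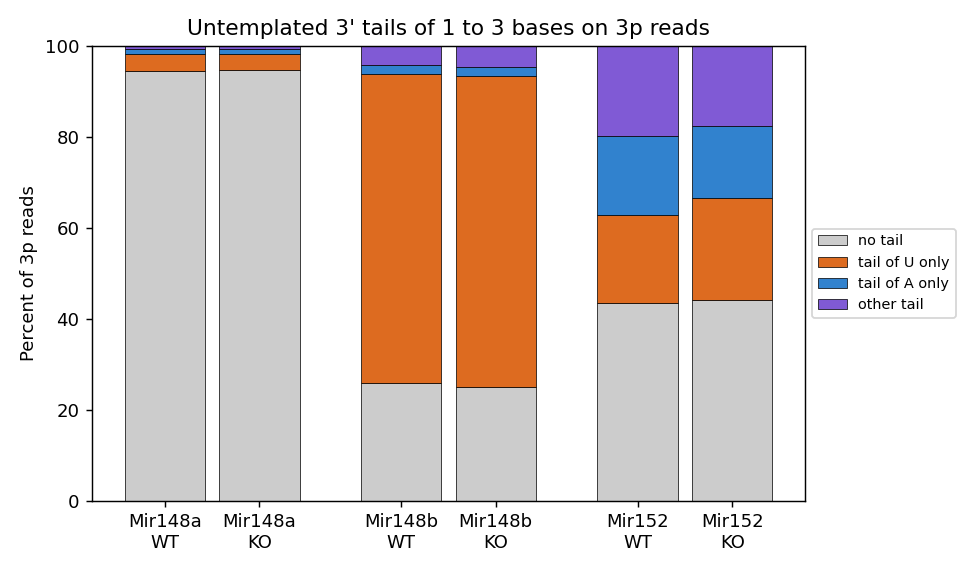
Share of 3p reads without a tail (grey) and with an untemplated tail of U only, A only or other bases, for each member in the WT and KO libraries. Mir148b carries mostly U tails and Mir152 a mixture, while over 94% of Mir148a reads have none.

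Counting tailed reads changed the order of the minor members. Mir148b reached 2121 reads in WT and 2129 in KO, 3.45-fold and 3.53-fold its exact count, and Mir152 to 1345 and 1323 reads, 1.44-fold and 1.42-fold. Mir148b then stood above Mir152, the opposite of the order by exact matches, and Mir148a exceeded Mir148b by 24.8-fold in WT and 24.4-fold in KO. The KO/WT ratios with tails were 0.976 (0.964 to 0.988) for Mir148a, 0.989 (0.931 to 1.05) for Mir148b and 0.969 (0.897 to 1.05) for Mir152. The total in these ratios was still that of exact hairpin-matching reads, without the tailed reads of any hairpin.

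Since 2 members differ from the abundant miR-148a-3p by adjacent bases, the reads were checked for misread Mir148a. Of the 22-nt form, the 6 sequences with 1 changed base at positions 9 and 10 had at most 7 reads in WT and 3 in KO. The 7 sequences with both bases changed that belong to no member had 0 reads in WT and 1 in KO in all, against 473 and 455 for Mir148b.

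Matches to the 3p seed were looked for in the longest annotated 3′ UTR of 18 genes of DNA methylation, the piRNA pathway and its chaperones. The letters searched were TGCACTG, on the mRNA strand, and the same with a following A, the stronger kind of site. Dnmt1, which copies methylation after replication, and Uhrf1, which brings Dnmt1 to DNA, each had 1 match followed by A, and Tdrd1, a Tudor protein of the piRNA pathway, had 1 without it. The matches are in capitals.
Dnmt1: agagccccacgTGCACTGatgttttt
Uhrf1: ttttcagagagTGCACTGactgggtg
Tdrd1: ctccaaggatgTGCACTGcttctctc
The Dnmt1 match began at base 23 of 312, the Uhrf1 match at base 613 of 984 and the Tdrd1 match at base 768 of 1310. The other 15 genes, among them Dnmt3a, Dnmt3b, Dnmt3l, Piwil2, Piwil4 and Hsp90aa1, had none in these UTRs. Of all 21028 UTRs 12.7% held the letters and 3.59% held them with the A, and of the 500 UTRs nearest in length to that of Dnmt1 2.8% and 0.6% did. For Uhrf1 these shares were 9% and 2.8%, and for Tdrd1 12.6% and 3.6%. A match with or without the A in 3 of 18 genes is near the share over all UTRs. With the A it was found in Dnmt1 and Uhrf1 among the 18 genes, against 3.59% of all UTRs, and this difference was not tested. Dnmt1 was a known target before the search, so its match does not count toward an excess. The share with the A also varied with UTR length, and was 16% near the length of Dnmt3a. A match is a description of the sequence, and mRNA and protein were not measured in these libraries.

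Other miRNAs that are known to act on DNA methyltransferases, the miR-29 family, were scarce. Its 4 genes had 73 reads in WT and 92 in KO together, a ratio of 1.24 (0.903 to 1.71), and 1 of them, Mir29a, reached 100 reads (53 and 68). Of the Hox cluster miRNAs, all 6 were measured and none lay past 1.2-fold, where 53.5% of hairpin genes did by all matches and 23.9% by specific sequences. Mir10b, the most abundant miRNA, had a ratio of 0.988 (0.986 to 0.991) and Mir10a 1.13 (1.12 to 1.14).

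Levels of some cell type markers differed between the libraries while the family stayed within 1.2-fold. Of 4 germ cell miRNAs of the Mir290 cluster found under their listed names with at least 100 reads, 3 were higher in KO past 1.2-fold. Among hairpin genes 7.42% were by all matches and 10.2% by specific sequences. The list sum went from 647 to 867 RPM, a ratio of 1.34 (1.26 to 1.43), led by Mir295 (1045 and 1428 reads) and Mir293 (194 and 274 reads). Mir292 was listed as Mir292a and so was left out of this count and sum. It had 394 and 443 reads, a ratio of 1.11. The gonadal supporting cell markers Mir202, at 1996 and 2134 RPM, and Mir140 had a sum ratio of 1.06 (1.03 to 1.10). Mesenchyme and muscle markers were at 1.02, with Mir199a-2 at 1.32 and Mir143 at 0.811. Blood and endothelium markers found under their listed names were at 0.991, with Mir126a at 1.003 and Mir451a at 0.844. Epithelium markers were at 0.858 (0.731 to 1.01) on 334 and 291 reads, with Mir200b at 0.728 and Mir429 at 1.03. Mir141 of that list had 24 and 37 reads, a ratio of 1.52 (0.885 to 2.65). Of the mesenchyme and muscle markers Mir143 was lower past 1.2-fold, and Mir199a-1 and Mir199a-2 were higher on nearly the same reads, since sequences specific to Mir199a-2 had 63 reads in WT and 61 in KO. Of 4 blood and endothelium markers found under their listed names with at least 100 reads 2 were lower past 1.2-fold, and of 3 such epithelium markers 2 were. Among hairpin genes 46.1% were lower by all matches and 13.7% by specific sequences. Mir486 and Mir142 carry other names on the blood list and so were left out of its count and sum. Mir486 had 7082 and 6302 reads, a ratio of 0.877, of which 108 and 107 were specific to it. Mir142 had 1121 and 935 reads, a ratio of 0.822, which is lower past 1.2-fold. The part of cell composition in the values of the family was not tested.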

How the data were processed

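Per the labels, total RNA of 20 whole testes per genotype was made into TruSeq small RNA libraries. The authors sequenced them on a MiSeq (50-nt single-end reads), removed adaptor bases, collapsed identical reads (11 to 48 nt) and deposited how often each was read, as counts without normalization. The submitters' processing notes name mm9. Here, reads of at least 16 nt were matched exactly and in sense to GENCODE M21 hairpins (GRCm38), and a read matching several genes was counted for each. Tails were 1 to 3 untemplated bases after an exact match. Ratios were tested with the exact conditional binomial test and shares with Fisher's exact test (Python 3.11.15, scipy 1.17.1). The intervals of ratios and quotients and the placing of reads were checked on simulated data, and the p-values and shares were not. Benjamini-Hochberg adjustment ran over 3 genes or 3 pairs. Intervals are at 95% and cover counting error only. A seed match used the longest annotated 3′ UTR of a gene. Named genes were the members, miR-29 and Hox cluster genes, the 3 nearest ratios per member, and hairpins sharing the seed. Of each marker list they were the 2 most-read genes found under their listed names. Mir292, Mir486 and Mir142, which the annotation names otherwise than the lists, are given beside them, as is Mir141.

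The members and lists were chosen with earlier results of these data known. After values were seen, the following were also chosen: the background by sequences of 1 hairpin gene and the median ratio taken from it, the comparisons of 3′ extension, tails and short ends across miRNAs with their thresholds, the 22-nt against 23-nt comparison, the arms with tailed reads, and the check of bases 9 and 10.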

Additional observations from a re-analysis of the deposited data

How the results depend on the processing

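No paired analysis was possible because each genotype has 1 library. For the same reason no replicate could be left out, and the KO/WT values have no measure of spread between animals. In this section the threshold is a p-value or adjusted p-value of 0.05 and not a fold. The KO/WT ratios depend on the normalizing total. With all reads as the total they reversed, to 1.14 for the family, 1.14 for Mir148a, 1.13 for Mir148b and 1.14 for Mir152, all past the threshold in the other direction. With the median ratio over hairpin genes, every match counted, they reversed likewise and passed it, to 1.13, 1.13, 1.12 and 1.14. The median ratio over genes counted by specific sequences, an alternative chosen after seeing the data and after the reversal was known, left the family at 0.997 and Mir148a at 0.997, no longer past the threshold. The median gene of that count was Mir152, a member of the family, so these values compare the family with 1 of its own members. The median of the hairpin genes was at -0.21 on the log2 scale by the first count and at -0.03 by the second. The same change of counting moved the share of hairpin genes past 1.2-fold from 53.5% to 23.9% (38.8% to 13.5% with at least 1000 reads) and past 1.5-fold from 40.0% to 1.95% (30.9% to 0%).

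With each distinct sequence counted once, few counts remained, and the family went to 1.04, Mir148a to 1.06 and Mir148b to 1.18, the quotients of Mir148a with Mir148b, Mir148a with Mir152 and Mir148b with Mir152 to 0.897, 1.195 and 1.33, and the differences in 3p share of Mir148a, Mir148b and Mir152 to -10.5, 15.4 and 14.6 points. With tails included the same quotients went to 0.987, 1.01 and 1.02. At a minimum of 20 nt the quotient of Mir148a with Mir152 was 1.004, the main 3′ end of Mir148b moved by 0.3001 points and the Mir152 tail share by 0.657 points, and with 3p reads alone that quotient was 1.02. None of these shares and quotients was past the threshold, and the cause was not tested. The difference in the 3′ end of Mir148a kept its direction and its side of the threshold at 20 nt and at 2 reads. Of 87 alternative values over 23 results, 57 kept their direction and side or size. Depth limits Mir148b and Mir152, whose intervals allow differences of over 7% in either direction.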
